A study of Ovis aries with 6 samples.

Results

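Vascular endothelial cells with more UMI of ESM1, OIT3 and APLNR than of the genes of 3 other endothelial classes were examined in ovaries of 6 Hu ewes. A barcode was retained if it held at least 1000 unique molecular identifiers (UMI, one per captured transcript) and at most 10% of them in genes named KEF53, and it was gated as endothelial if PECAM1, CDH5 and KDR together gave at least 5 UMI and more than DCN plus PTPRC. MMRN1, a lymphatic gene, had to stay below 3 UMI. Members were chosen by these same measured counts, with no outside annotation. A gated cell was a member if the sum of ESM1, OIT3 and APLNR was at least 2 UMI and higher than each of 3 other sums, namely SELP plus PLA1A plus ABCG2, APLN plus TNFRSF11B plus MASP1, and CA4 plus PPP1R1B plus PLSCR5. Of 52290 barcodes, 38465 were retained, 14511 were gated endothelial cells and 4590 were members, which was 31.6% of the gated endothelium and 11.9% of the retained cells.

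The ewes were in estrus, and each gave tissue from a single ovary that was digested into single cells for droplet sequencing of transcript 3' ends. The HLS group consisted of 3 ewes with litters of at least 3 lambs, and the LLS group of 3 ewes with litters below 2 lambs. All 6 were of the same breed, and neither group carried a treatment or an engineered allele. The libraries held between 43329214 UMI in LLS2 and 75549906 UMI in LLS1, over 7992 to 9135 barcodes. Between 13 and 28 barcodes were shared by any pair of libraries, at most 0.320% of either one. The labels list separate ewes. The p-values between HLS and LLS measure the spread between ewes. Those between endothelial classes, with the ewe as a block, measure how far the class differences varied from ewe to ewe.

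Blood capillaries exchange nutrients and hormones with the follicle, and their endothelium lies on a basement membrane of type IV collagen, laminin and nidogen that it secretes in part itself. ESM1 (endocan) is a secreted proteoglycan induced by VEGF and known from angiogenic endothelium, APLNR is the receptor for apelin, and OIT3 is a secreted protein known from liver sinusoidal endothelium. The ovary is among the few adult tissues in which vessels grow and regress with each cycle.

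The working label of these cells was capillary-type endothelium, and the capillary markers bore it out only in part. COL15A1, a basement membrane collagen often used as a capillary marker, was high. Of 12 listed capillary markers, 8 could be tested against the SELP, PLA1A and ABCG2 class, and 4 of them (COL15A1, GPIHBP1, TCF15 and CD300LG) were higher in the members. RGCC, BTNL9 and KIT did not pass the test, with log2 differences of 0.24, -0.31 and -0.43. MEOX2, a homeobox factor of heart and muscle capillaries, was lower (-1.85), a call that was lost without LLS1. Against the APLN, TNFRSF11B and MASP1 class 4 of the 8 were higher (COL15A1, GPIHBP1, RGCC and BTNL9) and 1 lower, with BTNL9 at 2.85 ± 0.46, and against the CA4, PPP1R1B and PLSCR5 class 3 were higher and 1 lower. Over all genes tested, 26.2% were higher and 24.5% lower against the first of these 3 classes. The shares were 4.12% and 5.94% against the second, and 19.5% and 20% against the third. FABP4 was near 0 at a mean of 0.00457 UMI per 10000, AQP1 was also too low to test, and PLVAP and CD36 were not analysed here. CA4, itself a textbook capillary gene, was assigned by the rule to another class. The cells are therefore called ESM1-type here, and the comparison classes are called ABCG2-type, APLN-type and CA4-type after a gene of each trio. ABCG2 supplied 79.2% to 91.5% of the UMI in the sum that defined the ABCG2-type class.

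The libraries did not contribute evenly, and 2 of them, 1 in each group, stood apart. HLS2 held 1674 ESM1-type cells and LLS1 held 2651, together 4325 cells or 94.2% of all members. The other 4 ewes held 265, with 82 in HLS1, 32 in HLS3, 34 in LLS2 and 117 in LLS3. The class comparisons and the comparison of HLS with LLS were also computed without HLS2 and LLS1, whereas the comparison of the class difference between HLS and LLS was not. No doublet caller was run, and the gate itself removed barcodes in which DCN or PTPRC reached the endothelial sum.

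ESM1-type cells made up 4.47% of the gated endothelium in HLS1, 50.5% in HLS2 and 2.88% in HLS3. In the LLS ewes they made up 68.5%, 2.69% and 3.75%. The high values thus fell in 1 ewe of each group, and the groups overlapped. The mean was 19.3% ± 27.1 (SD, n = 3) in HLS and 25.0% ± 37.7 (SD, n = 3) in LLS, and the difference was smaller than the spread between ewes (exact two-sided permutation test, p = 0.9, adjusted p = 0.9). With 3 ewes against 3 such a test cannot go below 0.1. As a share of all retained cells the means were 8.21% ± 12.5 (SD, n = 3) and 14.1% ± 22.5 (SD, n = 3), with an exact permutation p of 0.6 and an adjusted p of 0.9. Without HLS2 and LLS1 the mean share of the endothelium was 3.68% in HLS and 3.22% in LLS, and the sign of the difference turned.

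**Figure D1:**
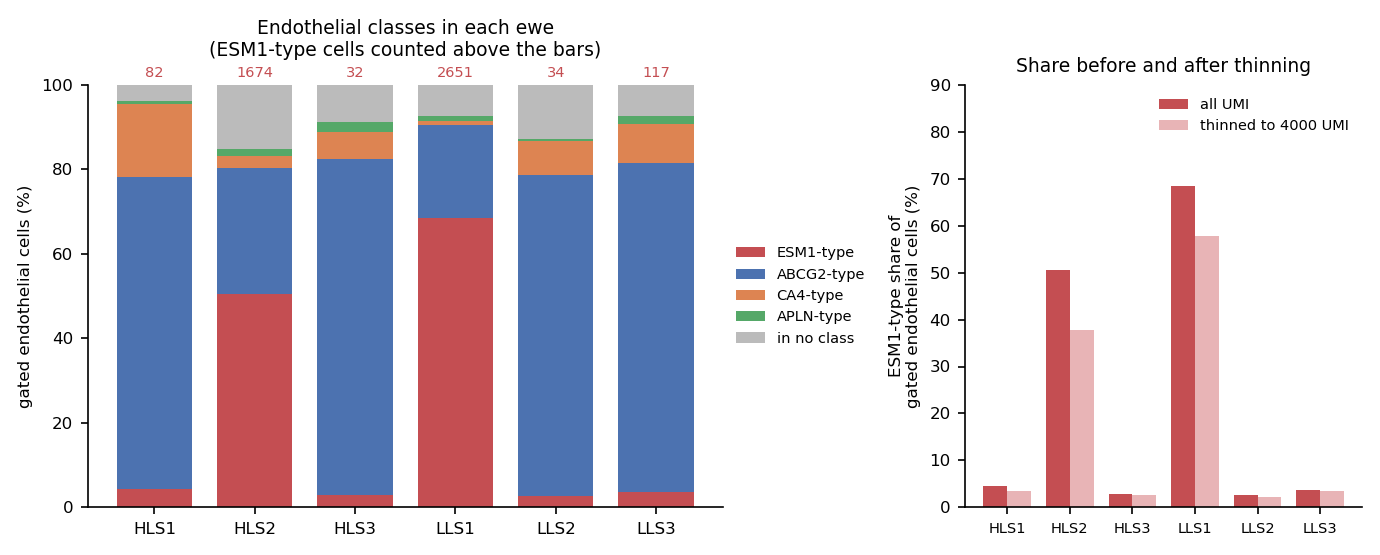
The left panel shows the percentage of gated endothelial cells in each class for each ewe, with the number of ESM1-type cells above each bar. The right panel shows the ESM1-type share before and after thinning to 4000 UMI, which left out cells with fewer UMI. The share was above 50% in HLS2 and LLS1 and below 5% in the other 4 ewes, and thinning left that order in place.

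The sum of each of the 4 classes had to reach 2 UMI and exceed the other 3 sums. Whether this limit took part in the differences in depth between classes was not tested. The median ESM1-type cell held 14997.5, 11310 and 15614 UMI in the HLS ewes and 13001, 9109 and 11186 UMI in the LLS ewes. ABCG2-type cells were shallower in every ewe, with medians of 12677.5, 10050 and 10042 UMI in HLS and 10910, 6927 and 7389.5 UMI in LLS. Endothelial cells with at least 4000 UMI were also thinned to 4000 UMI and classed again, and shallower cells were left out. In LLS2 this kept 1232 of 1464 endothelial cells. The ESM1-type share of the endothelium was then 3.56%, 37.7% and 2.62% in HLS and 57.8%, 2.21% and 3.43% in LLS. HLS2 and LLS1 also had the deepest barcodes of their groups, with medians of 6357 and 8349.5 UMI against 3192 to 4914.5 UMI in the other 4 libraries. The part of library depth in the shares of these ewes was not tested beyond the thinning.

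The 3 genes of the defining sum are described here without a test, because they chose the cells. ESM1 stood at 19.05, 5.55 and 10.4 UMI per 10000 in the ESM1-type cells of HLS1, HLS2 and HLS3 and at 8.17, 4.85 and 11.8 in those of LLS1, LLS2 and LLS3. This level is the gene's UMI summed over the cells, divided by all their UMI. HLS1 was the highest, and the 2 groups overlapped. OIT3 stood at 0.830, 0.628 and 0.754 in HLS and at 2.42, 1.82 and 1.06 in LLS, so that every LLS value lay above every HLS value. Among 9561 genes tested in these cells, the groups did not overlap for 598, or 6.25%, and HLS lay below LLS for 286 of them (2.99%). APLNR stood at 0.936, 1.74 and 1.26 in HLS and at 1.66, 2.27 and 1.17 in LLS, and the groups overlapped.

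**Figure D2:**
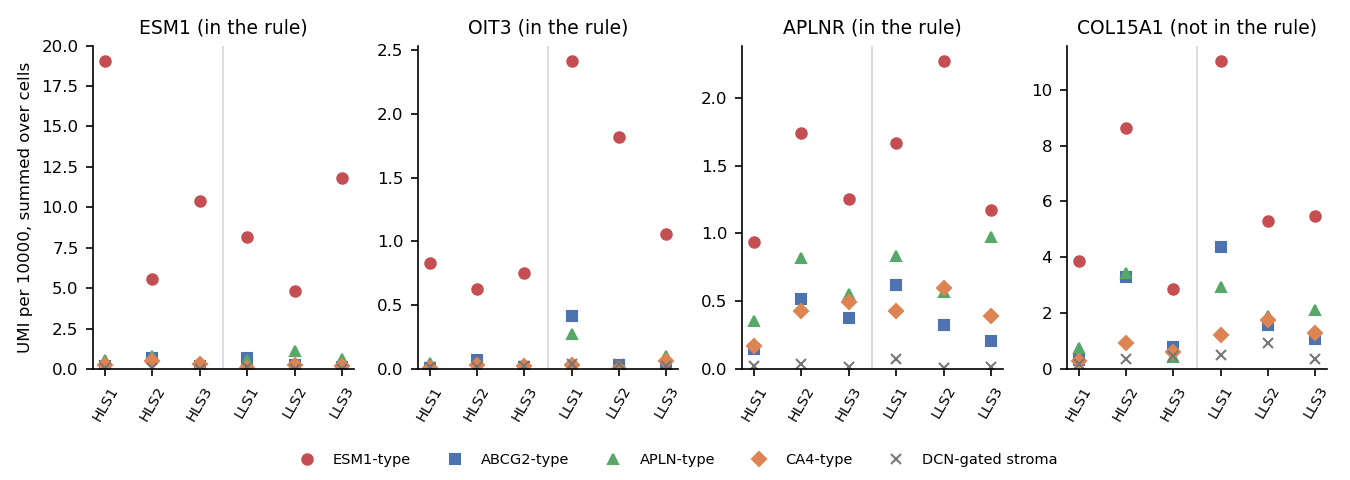
Levels of ESM1, OIT3, APLNR and COL15A1 in UMI per 10000 (vertical axes, each with its own scale) are shown for each ewe, with 1 symbol for each endothelial class and for stromal cells gated on DCN. ESM1-type cells were the highest in each panel, and COL15A1 was highest in HLS2 and LLS1.

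The trio was not used evenly by the members. ESM1 had the most UMI of the 3 genes in 52.9% to 85.4% of the ESM1-type cells of each ewe and supplied 54.2% to 91.5% of the sum. APLNR led in 7.32% to 23.5% of the cells and OIT3 in 2.63% to 14.7%. All 3 genes were present together in 67.3% of the members in LLS1 but in 30.4% of those in HLS2, where OIT3 gave a UMI in 38.5% of the cells against 84.6% in LLS1. At a depth of 4000 UMI these shares for OIT3 were 18.5% in HLS2 and 54.4% in LLS1. In stromal cells thinned to the same depth, which should lack the gene, OIT3 gave a UMI in 0.720% and 1.87%, and in ABCG2-type cells in 2.37% and 11.1%. OIT3 is a gene of the rule, so its excess over these cells was set by the choice of members.

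Cells at the threshold were few. The members with a sum of exactly 2 UMI numbered 145 in HLS2 and 60 in LLS1, and 96 and 40 further cells had a sum of 1 that was still above the other 3 sums. COL15A1 stood at 6.45 UMI per 10000 just inside the threshold and at 6.94 just outside it in HLS2, and at 6.87 and 5.06 in LLS1, below the 8.61 and 11.04 of all members in these ewes. A UMI of the SELP, PLA1A and ABCG2 sum was present in 53.6% to 85.3% of the members of each ewe.

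Members led by different genes of the trio were compared within HLS2 and LLS1, since the other 4 ewes held only 3 to 12 OIT3-led cells each. In LLS1, CXCL12, a chemokine of arterial endothelium, stood at 0.808 UMI per 10000 in the 1845 cells led by ESM1, at 0.123 in the 372 led by OIT3 and at 0.179 in the 202 led by APLNR. In HLS2 it stood at 0.505, 0.205 and 0.127 in the 1126, 44 and 325 cells of the same kinds. GJA5, an arterial gap junction protein, was also highest in the ESM1-led cells, with 0.366 against 0.158 and 0.139 in HLS2 and 0.203 against 0.1004 and 0.0845 in LLS1. Both genes were higher in members with a trio sum of 2 to 4 UMI than in those with 20 or more. CXCL12 stood at 3.38 and 0.367 in these cells of LLS1 and at 0.813 and 0.374 in HLS2. GJA5 stood at 0.717 and 0.0980 in LLS1 and at 0.449 and 0.146 in HLS2. MKI67, a proliferation marker, was lower in the ESM1-led cells of these 2 ewes, at 0.856 against 1.07 and 1.61 in HLS2 and at 1.42 against 2.18 and 2.64 in LLS1. That order was not shared by all ewes, with 1.91 in the 18 ESM1-led cells of LLS2 against 1.27 and 1.65, and 4.02 in the 74 of LLS3 against 5.80 and 3.31. COL15A1 differed less, at 9.0002, 7.39 and 8.02 in HLS2 and at 11.7, 9.203 and 8.97 in LLS1. These are single values per ewe, and no test was made on them.

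COL15A1 was not part of the rule and could be tested. Its level in ESM1-type cells was 3.87, 8.61 and 2.88 UMI per 10000 in HLS and 11.04, 5.30 and 5.47 in LLS, against 0.336, 3.30 and 0.771 and against 4.37, 1.59 and 1.07 in the ABCG2-type cells of the same ewes. It was higher in the ESM1-type cells of each ewe, with a log2 difference of 1.96 ± 0.27 (SE, n = 6 ewes, edgeR adjusted p = 4.83e-06). The difference was 1.85 ± 0.32 against APLN-type cells and 2.59 ± 0.29 against CA4-type cells. Stromal cells stood between 0.173 and 0.925. In HLS2 and LLS1 the ABCG2-type cells also carried more COL15A1 than those of the other ewes, and whether free RNA from the many ESM1-type cells of these libraries took part in that was not tested.

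The genes whose levels ran most closely with the ESM1, OIT3 and APLNR sum across gated endothelial cells were basement membrane genes. Over cells thinned to 4000 UMI, the mean Pearson r over 6 ewes was 0.396 for COL4A1, 0.368 for COL4A2 and 0.348 for COL15A1. Others near the top of the order were SPARC, a collagen-binding matrix protein, at 0.296, TM4SF18 at 0.282, TMSB10 at 0.281, ECM1 at 0.274 and the collagen chaperone SERPINH1 at 0.245. For COL4A1 the value lay between 0.355 and 0.465 in the separate ewes. The cells of an ewe share a library, and the r values are a description.

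Genes outside the rule were compared between classes on UMI summed per ewe and class, with the ewe as a block. These genes were measured in the cells that the rule had sorted, so the tests describe how the classes differ and are not independent evidence that the classes exist. Against ABCG2-type cells, 2738 of 10447 tested genes were higher in ESM1-type cells and 2559 were lower at an edgeR adjusted p under 0.05, which is 26.2% and 24.5% of the genes tested and 50.7% together. Against APLN-type cells, of which LLS2 had too few for a sum, 430 were higher and 621 lower, or 4.12% and 5.94% and 10.1% together. These fell to 270 and 406 without LLS1 and to 73 and 214 with at least 50 cells per sum. Against CA4-type cells, 2040 were higher and 2085 lower, or 19.5% and 20% and 39.5% together. The ESM1-type sums were the same in all 3 comparisons, which are therefore not independent of each other. Without HLS2 and LLS1, 2538 genes were higher and 2601 lower than in ABCG2-type cells. Of the 2738 and 2559 calls from all ewes, 84.2% and 86.9% were also made from the other 4 ewes alone.

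Basement membrane genes were mostly higher. Of 18 tested members of the vascular basement membrane list, 12 were higher and 0 lower than in ABCG2-type cells, with a median log2 difference of 0.92 against 0.01 over all genes tested. Of all genes tested, 26.2% were higher and 24.5% lower in that comparison. Against APLN-type cells 6 were higher and 0 lower, beside 4.12% and 5.94% of all genes. Against CA4-type cells 11 were higher and 1 lower, beside 19.5% and 20% of all genes. COL4A1, a chain of type IV collagen, stood at 41.7, 55.3 and 72.9 UMI per 10000 in the ESM1-type cells of HLS and at 73.7, 76.3 and 55.4 in those of LLS. In ABCG2-type cells it stood at 10.1, 35.5 and 20.8 and at 45.5, 20.9 and 16.8. Within each ewe the ESM1-type value was the higher one, and the log2 difference was 1.40 ± 0.17 (SE, n = 6 ewes, edgeR adjusted p = 1.23e-06). NID1, which links type IV collagen to laminin, had the largest difference of the list at 2.34 ± 0.29 (edgeR adjusted p = 1.6e-06), with levels of 1.10, 1.19, 3.25, 1.69, 4.50 and 2.16 in ESM1-type cells and 0.219, 0.605, 0.267, 0.822, 0.546 and 0.197 in ABCG2-type cells, from HLS1 to LLS3. Stromal cells carried 1.04 to 1.69 UMI per 10000 of NID1, which overlapped the ESM1-type cells, and 6.35 to 31.6 of COL4A1, below all of them. COL4A2, the partner chain of COL4A1, was higher by 1.39 ± 0.16, and the laminin chains LAMA4, LAMB1 and LAMC1 by 1.17, 1.03 and 0.96. Against APLN-type cells NID2, LAMA4, LAMB1 and LAMC1 did not pass, with log2 differences of 0.52, 0.23, 0.40 and 0.17, while COL15A1, NID1, COL4A1 and COL4A2 did. With at least 50 cells per sum, the calls for these last 4 against APLN-type cells were lost. AGRN, FN1, THBS1 and VCAN did not pass against either class.

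**Figure D3:**
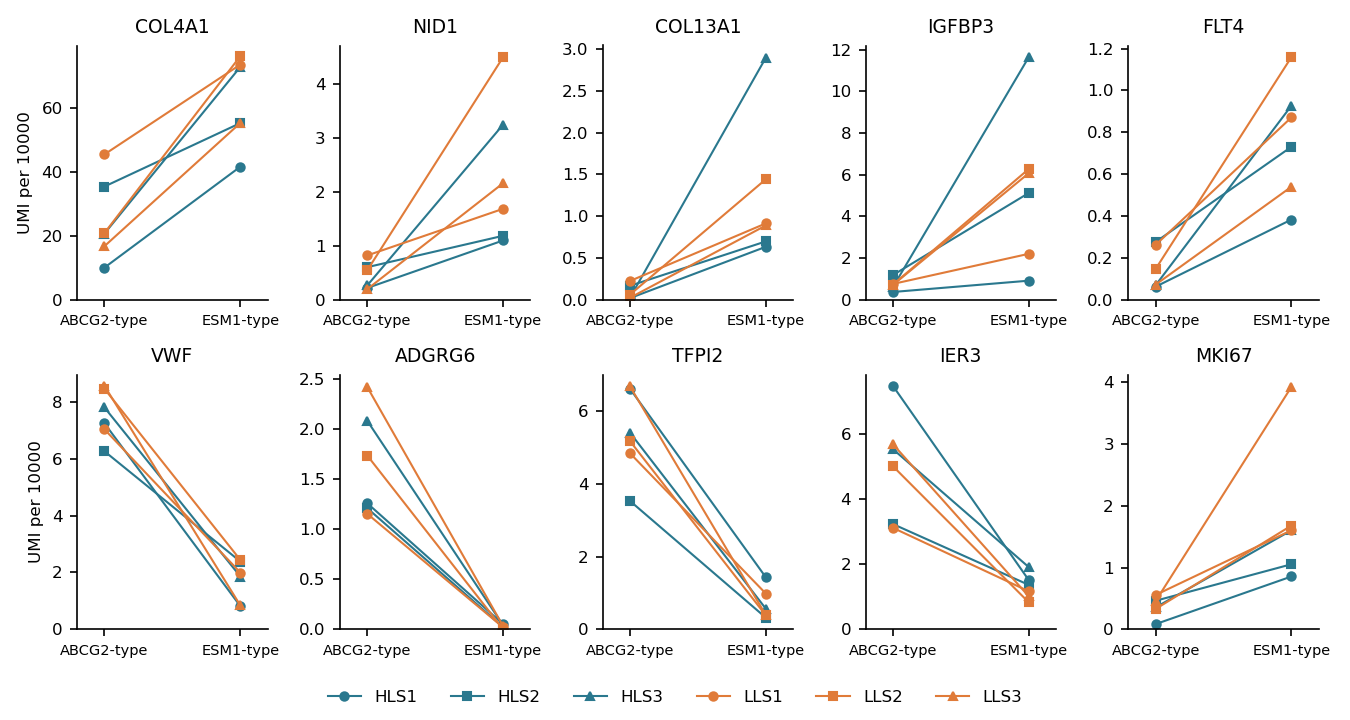
Levels in UMI per 10000 of 10 genes are joined by a line within each ewe, from ABCG2-type to ESM1-type cells, with a separate vertical scale for each gene and the HLS and LLS ewes in different colours. COL4A1, NID1, COL13A1, IGFBP3, FLT4 and MKI67 were higher in the ESM1-type cells of 6 ewes, and VWF, ADGRG6, TFPI2 and IER3 were lower.

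COL13A1, a transmembrane collagen, had the largest rise among named genes against each class. It stood at 0.635, 0.699, 2.90, 0.915, 1.44 and 0.890 UMI per 10000 in ESM1-type cells from HLS1 to LLS3, and between 0.0206 and 0.225 in ABCG2-type cells. Its log2 difference was 3.99 ± 0.45 against ABCG2-type, 3.06 ± 0.66 against APLN-type and 5.26 ± 0.67 against CA4-type cells, and the call against APLN-type cells was lost with at least 50 cells per sum. The other named rises against ABCG2-type cells were ADGRF2 (3.18), an orphan adhesion receptor, FAM167B (3.12), CPM (2.78), a membrane carboxypeptidase, the imprinted non-coding RNA GTL2 (2.73), IGFBP3 (2.67), which binds insulin-like growth factors, EHD3 (2.58), an endocytic recycling protein, STC2 (2.47) and the replication and centromere genes PCLAF (2.47) and CENPW (2.47). FAM167B and ADGRF2 were also among the 10 largest rises in the other 2 comparisons. IGFBP3 varied between ewes from 0.918 in HLS1 to 11.6 in HLS3, with a difference of 2.67 ± 0.42. CA2, a carbonic anhydrase, rose against APLN-type cells (2.97 ± 0.59), and DNASE1L3, a secreted nuclease, against CA4-type cells (3.93 ± 0.53).

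The largest falls were steeper than the largest rises. ADGRG6, an adhesion receptor, stood at 0.0503, 0.0201, 0.0386, 0.0183, 0 and 0.0307 UMI per 10000 in ESM1-type cells from HLS1 to LLS3, against 1.26, 1.21, 2.09, 1.15, 1.74 and 2.42 in ABCG2-type cells, a log2 difference of -5.97 ± 0.34 (SE, n = 6 ewes, edgeR adjusted p = 3.96e-11). It was the largest named fall in all 3 comparisons. ACKR1, the atypical chemokine receptor that marks venules, fell by 5.78 on the log2 scale against ABCG2-type cells. CCL26, a chemokine, SCN3B, a sodium channel subunit, PLA2G7, a lipoprotein-bound phospholipase, CLDN11, a tight junction claudin, LEPR, the leptin receptor, FAM110C, CFB, complement factor B, and FGF13 followed, with log2 differences from -5.59 to -4.69. Against APLN-type cells the falls were led by ADGRG6 (-6.30), LTBP1 (-6.23), which holds latent TGF-beta in the matrix, the heparan sulfatase SULF2 (-6.00), NTN4 (-5.94), a netrin of basement membranes, and OLR1 (-5.84), a receptor for oxidised lipoprotein. LTBP1 averaged 0.202 UMI per 10000 in ESM1-type cells and 12.5 in APLN-type cells.

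Of 6 tested venous markers, 5 (ACKR1, VWF, TLL1, IL1R1 and NR2F2) were lower than in ABCG2-type cells and 0 were higher, beside 24.5% and 26.2% of all genes. VWF, the carrier of factor VIII that is stored in endothelium, stood at 0.811, 2.38, 1.86, 1.99, 2.44 and 0.835 UMI per 10000 from HLS1 to LLS3, against 6.26 to 8.56 in ABCG2-type cells, and the ranges did not overlap. Its log2 difference was -2.23 ± 0.23 (edgeR adjusted p = 1.55e-07). TLL1, a metalloprotease, was lower by 3.54 ± 0.22 log2 units, IL1R1, the interleukin-1 receptor, by 1.34 ± 0.38 and NR2F2, the transcription factor of venous identity, by 0.77. Against APLN-type cells, 5 of 6 were lower, beside 5.94% of all genes, and against CA4-type cells 4 of 6, beside 20% of all genes.

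Tip cell markers are genes of the leading cells of sprouts. Against ABCG2-type cells 8 of 13 were higher and 2 lower, beside 26.2% and 24.5% of all genes, with a median log2 difference of 1.17. The higher ones included KCNE3 (1.84 ± 0.44), a potassium channel subunit, and PXDN (1.44 ± 0.17), a peroxidase that crosslinks type IV collagen, beside COL4A1, COL4A2, NID2 and LAMA4, which the basement membrane list also holds. INSR, the insulin receptor, was lower by 2.78 ± 0.26 log2 units and PGF, a VEGFR1 ligand, by 2.47 ± 0.57. The call for PGF was lost without HLS2 and LLS1. Against APLN-type cells, 2 were higher (COL4A1 and COL4A2) and 2 lower (PGF and INSR), beside 4.12% and 5.94% of all genes.

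Among 12 tested arterial markers, 5 were higher than in ABCG2-type cells and 2 lower, beside 26.2% and 24.5% of all genes. UNC5B, a netrin receptor, and GJA4, a gap junction protein, were higher by 1.47 ± 0.40 and 1.47 ± 0.32, CXCL12 by 1.09 ± 0.42, EFNB2, the arterial ephrin ligand, by 1.01 and HEY1, a Notch target, by 0.84. BMX, a kinase, and SOX17, an arterial transcription factor, were lower. CXCL12 was highest in LLS3, at 3.19 UMI per 10000 in ESM1-type cells against 0.396 to 1.02 in the other ewes, and did not pass without LLS3 or without HLS3. Within HLS1, HLS2, LLS1 and LLS2 its level was highest in the members near the threshold, with a trio sum of 2 to 4 UMI. In LLS2 it stood at 2.91 in the 8 such cells and at 0 in those with 10 UMI or more. In HLS3 and LLS3 it was highest in members with a sum of 20 or more. GJA5 did not pass, with 1.55 in HLS3 and 1.52 in LLS3 against 0.178 to 0.299 in the other 4. Against CA4-type cells 1 arterial marker was higher and 4 were lower, with a median of 0.06, beside 19.5% and 20% of all genes. Without HLS2 and LLS1 4 were higher and 2 lower, with a median of 0.81.

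The list of VEGF and apelin signalling was counted without APLN, a gene of the rule, so the counts do not cover apelin itself. Of its 16 tested genes, 7 were higher and 4 lower than in ABCG2-type cells. Over all genes the shares were 26.2% and 24.5%, so that the lower share was that of all genes. The higher ones were the receptors and co-receptors FLT1, FLT4, NRP1, NRP2, PLXND1 and RAMP3 and the ligand SEMA3F, and the lower ones the ligands VEGFB and PGF, the receptor ROBO4 and DUSP5. FLT4, the receptor for VEGFC, stood at 0.383, 0.731, 0.928, 0.871, 1.16 and 0.540 UMI per 10000 from HLS1 to LLS3, against 0.0626 to 0.276 in ABCG2-type cells, a log2 difference of 2.38 ± 0.24 (edgeR adjusted p = 7.23e-08). NRP1, a co-receptor of VEGF, was higher by 0.91, the semaphorin receptor PLXND1 by 0.87, and FLT1, the VEGF decoy receptor, by 0.46. DUSP5, a phosphatase of ERK and a VEGF-induced gene, was lower by 1.87 ± 0.19. FLT4 also marks lymphatic vessels. Of 5 tested lymphatic markers 2 were higher (FLT4 and LYVE1) and 2 lower (PROX1 and RELN). PROX1, the lymphatic master regulator, was lower by 2.39 ± 0.22 log2 units, at 0.0515 to 0.544 UMI per 10000 against 0.371 to 1.34. LYVE1, a hyaluronan receptor, was present in all blood endothelial classes, and its difference of 0.50 ± 0.17 passed against ABCG2-type cells but not in thinned cells, nor without HLS3, LLS2 or LLS3.

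The remaining signalling lists differed in direction. In BMP and TGF-beta signalling, 6 of 21 were higher and 9 lower than in ABCG2-type cells, the first close to the 26.2% of all genes tested and the second above the 24.5%. Among them were LTBP4 (-2.39), a matrix binder of TGF-beta, the ligand BMP4 (-2.10), the co-receptor TGFBR3 (-2.04) and the inhibitory SMAD6 (1.27). In Notch signalling 3 of 11 were higher (HEYL, HEY1 and NOTCH4) and 2 lower (DLL1 and HES1), close to or below the same shares of all genes. In cells thinned to 4000 UMI, 0 of 9 tested Notch genes were higher and 4 lower. In angiopoietin signalling 0 of 5 were higher, and PTPRB, the phosphatase of TIE2, FOXO1, its transcriptional output, and TEK, the receptor itself, were lower by 1.09, 0.97 and 0.57. In insulin and IGF signalling 2 of 12 were higher (IGFBP3 and IGFBP6) and 4 lower, among which INSR, IGF1R (-2.69) and IRS2 (-1.69) are the receptors and an adaptor. Of 4 tested steroid hormone receptors 3 were lower, namely NR3C2 (-4.36), the mineralocorticoid receptor, PGR (-3.16), the progesterone receptor, and NR3C1 (-0.61), the glucocorticoid receptor. PGR stood between 0.0126 and 0.0966 UMI per 10000, at about the level of a few UMI in the smaller sums.

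Proliferation genes were higher than in ABCG2-type and CA4-type cells. All 16 tested cell cycle genes were higher in ESM1-type than in ABCG2-type cells, with a median log2 difference of 1.91, and the same number were higher than in CA4-type cells. Of all genes tested, 26.2% were higher in the first comparison and 19.5% in the second. The higher level held in every ewe for 16 genes in the first comparison and for 4 in the second. Against APLN-type cells 0 of 16 passed in either direction, beside 4.12% higher and 5.94% lower over all genes. MKI67 stood at 0.855, 1.05 and 1.604 UMI per 10000 in HLS and at 1.604, 1.68 and 3.93 in LLS, against 0.0827 to 0.555 in ABCG2-type cells (2.19 ± 0.41, SE, n = 6 ewes, edgeR adjusted p = 0.000151). LLS3 was the highest, and it was also highest for this gene among the APLN-type cells (4.42) and the stroma (1.25).

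Cells with at least 3 UMI of MKI67, TOP2A and CENPF were counted as well, at 4000 UMI per cell. They made up 14.6%, 10.1% and 16.1% of the ESM1-type cells in HLS and 13.8%, 21.9% and 42.3% in LLS. In ABCG2-type cells the shares were 1.58%, 3.88%, 3.29%, 5.69%, 3.75% and 4.28% from HLS1 to LLS3, lower than in the ESM1-type cells of each ewe. APLN-type cells, with 12 to 58 cells in the ewes counted, stood at 0% in HLS1, 17.5% in HLS2, 36% in HLS3, 17.4% in LLS1 and 44.8% in LLS3, above the ESM1-type share in 4 of 5 ewes. CA4-type cells stood at 0.641% to 6.93% in 5 ewes and at 14.5% in HLS3, close to the 16.1% of the ESM1-type cells there. In the unthinned cells the ESM1-type shares ran from 14.04% in HLS2 to 53.0% in LLS3. When these cells were left out of every class, 2024 of 9107 tested genes were higher and 2081 lower than in ABCG2-type cells. Of the earlier calls 69.3% and 77.1% were among them, while 36 of the earlier higher calls had the opposite sign. The basement membrane list then had 13 of 18 higher, and 6 cell cycle genes could still be tested, of which 4 were higher.

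**Figure D4:**
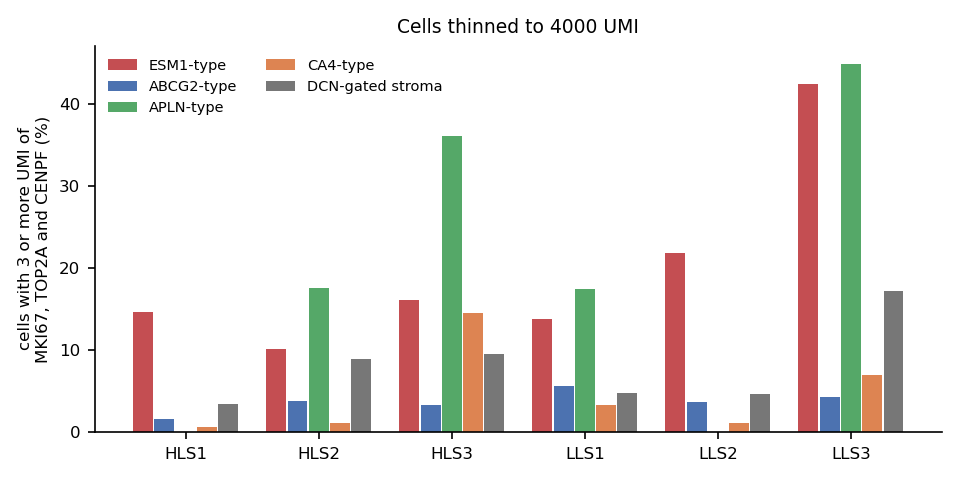
The percentage of cells with 3 or more UMI of MKI67, TOP2A and CENPF after thinning to 4000 UMI is shown for each class and ewe, leaving out a class with fewer than 10 cells. ESM1-type cells lay above ABCG2-type cells in 6 of 6 ewes, and in LLS3 they reached 42.3%.

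Metabolic lists varied in how far they departed from the 26.2% higher and 24.5% lower of all genes tested against ABCG2-type cells. In cholesterol synthesis 12 of 15 were higher and 0 lower, with a median of 0.72, and 8 were higher without HLS2 and LLS1. MVK (1.05), LSS (0.90) and INSIG1 (0.86), 2 enzymes and a feedback regulator, were among them, and LSS did not pass without HLS2 and LLS1. In glycolysis 9 of 18 were higher and 5 lower, the latter near the share of all genes. ALDOC (1.67), GAPDH (0.99), PGK1 (0.84) and ENO1 (0.83), glycolytic enzymes, were higher, while the glucose transporters SLC2A1 (-1.96) and SLC2A3 (-1.62), the hexokinases HK1 and HK2 and the regulator PFKFB3 (-1.30) were lower. In lipid handling 3 of 10 were higher, near the share of all genes, with VLDLR (1.48) and GPIHBP1 (1.31), and 6 lower, with ABCA1 (-2.13) and FABP5 (-2.10). Against APLN-type cells 1 of 15 cholesterol genes was higher (median -0.03), 1 of 18 glycolysis genes (median 0.004) and 1 of 10 lipid genes. The numbers lower were 0, 0 and 1, beside 4.12% higher and 5.94% lower over all genes.

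Stress-responsive and immune genes were lower than in ABCG2-type cells more often than the 24.5% of all genes tested. Of 22 immediate early genes, which respond within minutes to stimuli and to tissue digestion, 20 were lower and 0 higher than in ABCG2-type cells, with a median of -0.86. IER3 stood at 1.51, 1.37, 1.91, 1.17, 0.828 and 1.01 UMI per 10000 from HLS1 to LLS3, against 3.12 to 7.50, a log2 difference of -1.96 ± 0.20. Against APLN-type cells 1 was higher (NR4A1) and 1 lower (KLF6), near the 4.12% and 5.94% of all genes. Whether handling of the tissue took part in these differences was not tested. Of 13 interferon-induced genes 8 were lower and 0 higher, led by the chemokine CXCL10 (-4.04) and the regulator IRF7 (-1.75), whereas against APLN-type cells 1 was higher and 1 lower with a median of 0.22. Of 13 adhesion and chemokine genes 7 were lower, among them IL6 (-4.18) and CXCL8 (-3.61), and 1, CXCL12, was higher. In complement and MHC 5 of 6 were lower, led by CD55 (-2.12), which protects cells from complement, and CD74 (-1.97), the class II chaperone. The summed level of 5 macrophage markers moved with these lists. It was 0.195, 0.133, 0.0580, 0.137, 0.118 and 0.0982 UMI per 10000 in ESM1-type cells from HLS1 to LLS3, against 0.645, 1.48, 4.71, 0.902, 1.37 and 0.536 in ABCG2-type cells, with CD68 or C1QC the most abundant in the latter. The part of macrophage RNA in the falls of immune genes was not tested.

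Genes of vessel tone and haemostasis were mixed, beside 26.2% higher and 24.5% lower over all genes tested. Of 12 vasoactive genes 6 were lower and 1, NOS3, higher than in ABCG2-type cells. ACE, the angiotensin-converting enzyme, was lower by 4.22 ± 0.32 log2 units, GUCY1A1, a subunit of the nitric oxide receptor, by 3.10 and PTGIS, prostacyclin synthase, by 2.98. Of 10 haemostasis genes 4 were higher and 3 lower, the latter a share near that of all genes. Among them TFPI2, a protease inhibitor, was lower by 3.13 ± 0.27, at 0.315 to 1.43 UMI per 10000 against 3.53 to 6.69 in ABCG2-type cells and 4.63 to 13.6 in stromal cells. TFPI and PLAT, the tissue factor inhibitor and the plasminogen activator, were higher by 1.69 and 1.504. Of 13 proteases and inhibitors of the matrix 5 were higher and 4 lower, the latter again near the share of all genes. PLAU, the urokinase activator, was higher by 2.09 ± 0.32, and ADAMTS4 and TIMP2, a matrix protease and an inhibitor, were lower by 1.76 and 1.55. The medians of these last 2 lists, -0.28 and -0.21, turned to 0.20 and 0.53 without HLS2 and LLS1. Among integrins 7 of 11 were higher, led by ITGB3 (1.21), and ITGB4, a laminin receptor of epithelium and some vessels, was lower by 4.13 ± 0.32.

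Genes shared by most endothelium were not uniform. Of 20 tested general endothelial genes 6 were higher than in ABCG2-type cells, near the 26.2% of all genes. Another 12 were lower, beside 24.5% of all genes. SOX18 and CD34 were higher by 0.68 and 0.72, and FLI1 and ERG, ETS factors of endothelial identity, were lower by 0.95 and 0.73. Of 22 endothelial transcription factors 3 were higher and 13 lower, among them FOXC2 (-2.57) and KLF4 (-1.49). Caveolar genes had 5 of 8 lower and junction genes 8 of 14, with OCLN (-1.30), a tight junction protein, and CLDN5 (-0.89), the main endothelial claudin, among them. Against APLN-type cells 6 of the 22 transcription factors were higher and 5 lower, with a median of 0.10. Of the general, caveolar and junction genes, 3, 1 and 1 were higher there and 4, 4 and 3 lower. Over all genes tested, 4.12% were higher and 5.94% lower than in APLN-type cells.

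**Figure D5:**
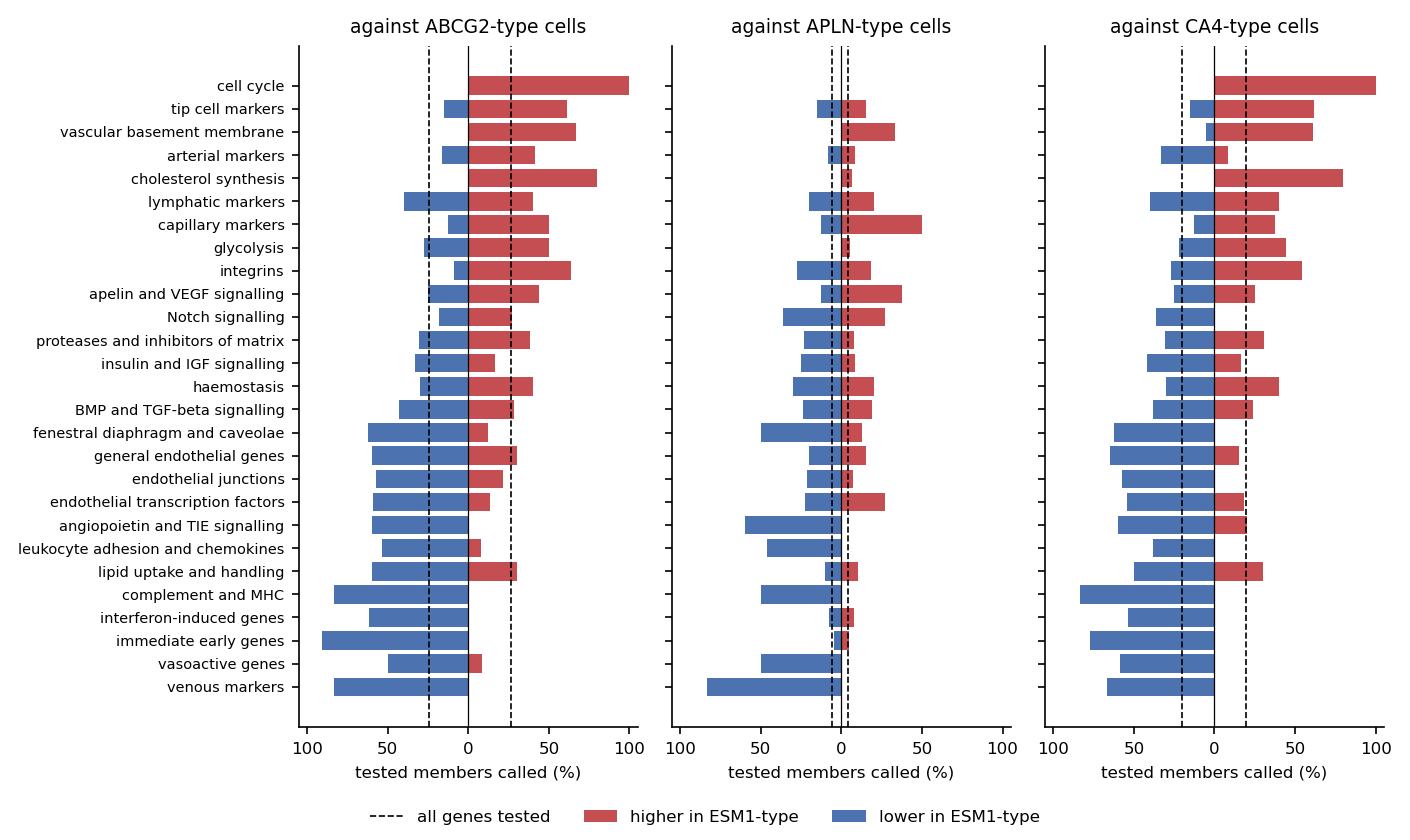
Bars give the percentage of the tested members of each list that were higher (to the right) or lower (to the left) in ESM1-type cells against each of 3 other classes, at an edgeR adjusted p under 0.05, for lists with at least 5 tested members. Dashed lines mark the percentage over all genes tested, which is 26.2% and 24.5% in the first panel.

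Markers of other ovarian cell types were present in the ESM1-type cells at low summed levels. At least 3 UMI of the stromal markers were found in 35.4%, 17.03% and 53.1% of the ESM1-type cells of HLS and in 9.92%, 23.5% and 14.5% of those of LLS, against 38.6%, 15.1%, 51.3%, 11.5%, 26.3% and 9.72% of the ABCG2-type cells from HLS1 to LLS3. At least 3 UMI of the smooth muscle markers were found in 17.1% of the ESM1-type cells of HLS1, in 21.9% of those of HLS3 and in 3.51% to 8.55% in the other 4 ewes. The summed level of 6 stromal markers was 1.11 to 2.499 UMI per 10000, with COL1A1 the most abundant in 5 ewes and COL1A2 in LLS2, and that of 6 pericyte markers 0.0193 to 0.392. The pericyte markers RGS5, KCNJ8, ABCC9, PDGFRB and HIGD1B were at 0 in HLS3. The 5 smooth muscle markers summed to 0.473 to 1.15 except in HLS3, where they reached 5.604 through TAGLN at 5.198. The theca markers, led by CYP11A1, reached at most 0.994 in LLS2, against 0.924 to 1.53 in ABCG2-type cells and 1.52 to 4.79 in the APLN-type cells of the 5 ewes compared, and 6 granulosa markers at most 0.480. Macrophage, lymphocyte and epithelial markers summed to at most 0.195, 0.329 and 0.522, where the macrophage markers reached 4.71 in the ABCG2-type cells of HLS3, and Schwann and red blood cell markers to at most 0.00415 and 0.0430. The part of such cells in the results was not tested beyond a repeat without cells that held 3 or more UMI of RGS5, PDGFRB, COL1A1, COL1A2, INHA and CD53 or over 3 times the median UMI of their class, which left 2268 genes higher and 2250 lower than in ABCG2-type cells.

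Within the ESM1-type cells, 0 of 9561 tested genes differed between HLS and LLS at an edgeR adjusted p under 0.05, which is 0.0%. At an unadjusted p under 0.05 there were 129, or 1.35%, and DESeq2 made 1 call at an adjusted p under 0.05. The groups did not overlap for 598 genes, or 6.25%, with HLS above LLS for 312 (3.26%) and below for 286 (2.99%). The sums of HLS3, LLS2 and HLS1 held 517485, 422546 and 1591149 UMI, against 41010631 in LLS1.

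The 5 genes with the smallest p were 4 without a symbol and SLC6A6, the taurine transporter. SLC6A6 stood at 0.346, 0.408 and 0.502 UMI per 10000 in HLS and at 0.710, 0.805 and 1.09 in LLS. Every LLS ewe lay above every HLS ewe, with a log2 difference of HLS to LLS of -0.93 ± 0.23 (SE, n = 3 and 3 ewes, edgeR adjusted p = 0.9997). The gene did not pass the adjusted threshold. The call by DESeq2 was for LOC101105609, at 2.01, 0.534 and 0.812 in HLS and at 0.231, 0.308 and 0.233 in LLS (edgeR log2 difference 2.39 ± 0.52, adjusted p = 0.9997).

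Of the genes given above for the comparison with ABCG2-type cells, 6 are set out here between the groups, and none of these 6 passed the adjusted threshold. The log2 difference of HLS to LLS was -0.38 ± 0.45 (SE) for COL15A1, -0.15 ± 0.32 for COL4A1, -0.48 ± 0.44 for NID1, 0.43 ± 0.49 for COL13A1 and -0.22 ± 0.33 for FLT4. For MKI67 it was -0.93 ± 0.35. Standard errors of this size leave room for differences in either direction for the first 5 genes. The immediate early list had a median of 0.21 over 22 tested genes and the cell cycle list of -0.44 over 16, beside 0.01 over all 9561.

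The difference between ESM1-type and ABCG2-type cells was also compared between HLS and LLS ewes in a single edgeR model. Of 13314 genes 0 passed at an adjusted p under 0.05, with 125 at an unadjusted p under 0.05 and a smallest adjusted p of 0.867. The gene with the smallest p was SLC8A1, a sodium and calcium exchanger, named after its values were seen, with a difference between the groups of 3.52 ± 0.58 log2 units.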

How the data were processed

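The deposited counts are whole-number UMI counts per gene and barcode, which the authors made with Cell Ranger 5.0.0 (per the file headers) and the STAR aligner from 10x 3' libraries. Genome build and annotation are not given in the sources used here. Symbols were used as deposited, and the authors' cell types and their removal of low-quality cells and multiplets were not used here. The 37 KEF53 genes stand for the mitochondrial genome.

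The members, the gene lists and the comparisons were chosen with earlier results of these data known. Counts were summed per ewe and class where a class had at least 10 cells. Sums were tested with edgeR 4.0.16 (filterByExpr, TMM, quasi-likelihood F-test, Benjamini-Hochberg adjustment over all tested genes, threshold 0.05). Classes were compared in 1 fit with the ewe as a block, since both classes came from the same animals, and HLS with LLS without a block. The 18 genes of the rule stayed in library sizes and out of all tests. In HLS1 the TMM factors were 0.799 to 0.867, against 0.993 to 1.10 elsewhere. Shares were compared by an exact permutation test with adjustment over 2 shares. The script was tested on simulated data.

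Named genes were the 10 largest rises and 10 largest falls per class comparison with a symbol, a mean of at least 20 CPM in the higher class and the same sign in every ewe, the 5 smallest p between HLS and LLS, and up to 4 members of each list by size of change. Other genes were named after their values were seen, and some results are not reported here. Overlapping and antisense genes cannot be told apart where strand is not stated. DESeq2 1.42.0, Python 3.11.15 and R 4.3.3 were also used. Alternatives covered the tool, scaling, filters, cell limits, thinning, the block and each ewe left out. After seeing the data, 3 more were added, namely fits without HLS2 and LLS1, with at least 50 cells per sum, and without cells holding 3 UMI of MKI67, TOP2A and CENPF.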

Additional observations from a re-analysis of the deposited data

How the results depend on the processing

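The groups held 3 ewes each, and HLS2 and LLS1 supplied 94.2% of the cells, so shares and sums of the other ewes rest on 32 to 117 cells. The difference in the share of the endothelium (HLS minus LLS, -5.68 percentage points) changed sign when single ewes were left out and ranged from -21.3 to 16.1, with 1.73 without HLS1, 2.53 without HLS3 and 16.1 without LLS1. Without HLS2 and LLS1 together it was 0.458. The difference in the share of retained cells (-5.88) ranged from -13.1 to 7.12, the latter without LLS1. The p-values of these shares stayed above 0.05 under every alternative, in a design that could not go below 0.1.

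Gene counts moved by over 1.5 times in the following cases. Against ABCG2-type cells (2738 higher and 2559 lower), thinning to 4000 UMI left 1360 and 1406, with fewer genes tested (6001). Against APLN-type cells (430 and 621), thinning gave 160 and 299, no ewe block 219 and 375, and a fit of the 2 classes alone 254 and 365. In the same comparison, at least 50 cells per sum gave 73 and 214, no low count filter 732 higher, and leaving out HLS2 and LLS1 345 lower. Single ewes left out gave 270 to 396 higher and 406 to 586 lower, with the lowest counts without LLS1. With at least 50 cells per sum, the calls against APLN-type cells for COL15A1, COL4A1, COL4A2, NID1 and COL13A1 were lost. Against CA4-type cells (2040 and 2085), thinning gave 946 and 1113, and no ewe block 1294 higher. Single ewes left out gave 1350 to 1981 higher there, the lowest without LLS3. Without HLS2 and LLS1, COL15A1, COL4A1, NID1, COL13A1, FLT4, VWF and ADGRG6 kept their calls against all 3 classes.

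Between HLS and LLS, DESeq2 called 1 gene higher. Leaving out LLS1 gave 2 genes lower (LOC101106041 and LOC105615767), other single ewes gave 0, and leaving out HLS2 and LLS1 gave 1 lower (LOC101106041, named after its values were seen). Library sizes without TMM moved the median of all genes from 0.01 to -0.13. With the replicate number as a block, 0 genes passed and 263 had an unadjusted p under 0.05. The deviations of ewes with the same number correlated at -0.0536, -0.0949 and 0.208. Of 3 HLS ewes, 1 matched best the LLS ewe of its own number. With 3 ewes per group, these values cannot decide whether the numbers pair the ewes. Of 327 named gene results, 234 kept their direction and side of the threshold under every alternative that gave a value, and none changed direction. The causes of these changes were not tested. After thinning, fewer genes entered the test, and the part of this in the lower counts was not tested either.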
